A study of Mus musculus with 16 samples.

Results

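The genes described here are 10 that define the melanocyte lineage and make its pigment: the transcription factors Mitf and Sox10, the melanin enzymes Tyr, Tyrp1 and Dct, the melanosome matrix and membrane proteins Pmel and Mlana, the transporters Oca2 and Slc45a2, and the receptor Mc1r. They were chosen by gene symbol from what is known of pigment cells, with earlier results of these data known, and all 10 were found among the 45777 genes listed and passed the filter on low counts. RNA was sequenced from 16 allograft tumors of B16F10, a pigmented melanoma line derived from a C57BL/6 mouse, grown under the skin of the flank, with 4 tumors in each of 4 groups. The lean pre-therapy group came from C57BL/6J hosts and the obese pre-therapy group from C57BL/6J-ob/ob hosts, which lack leptin. The lean ETS and obese ETS groups came from the same kinds of host after chemotherapy with etoposide (ETS), an inhibitor of topoisomerase II, given at 20 mg/kg in 5 intraperitoneal injections. All hosts were grafted at 6 weeks of age with the same cell line. Whether pre-therapy hosts received a vehicle is not given in the sources used here, and the ETS tumors were collected after the course of therapy, so drug and elapsed time cannot be told apart.

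Pigment is made in melanosomes, lysosome-related organelles in which tyrosinase starts the oxidation of tyrosine and its relatives Tyrp1 and Dct carry the intermediates toward eumelanin. Sox10 switches on Mitf in cells of neural crest origin, and Mitf in turn binds the promoters of most pigment genes. Signals through Mc1r raise cyclic AMP, which acts on Mitf through the cyclic AMP response element of its melanocyte promoter. In melanoma, these genes are read as the differentiated, pigmented end of the tumor cell's range of states.

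Library totals ran from 47199949 to 61655287 counts per tumor, and log2 CPM (counts scaled to a common library size) of tumors within a group correlated across genes at r of 0.97 to 0.992. The lowest chi-square per degree of freedom between 2 tumors of a group was 27.1, so that no pair of tumors agreed within sampling noise. Host cells varied between groups. The summed level of 10 macrophage markers was 416 to 1332 CPM in lean pre-therapy tumors, 50.8 to 424 after ETS, 43.6 to 259 in obese pre-therapy tumors and 359 to 1072 after ETS. For 7 fibroblast markers the ranges in the same order were 531.5 to 2189, 97.1 to 599, 95.5 to 605 and 611.5 to 5692 CPM, and the highest value was that of obese ETS tumor 4. T and NK cell markers summed to 23.9 to 47.4 CPM in the lean pre-therapy tumors and to at most 2.79 CPM elsewhere, where in each group at least 1 of Cd3d, Cd3e and Cd3g was at 0 in 1 or more tumors. The 5 keratinocyte markers reached 128.5 CPM in obese ETS tumor 2 and at most 3.97 CPM in the other tumors, and all 5 were at 0 in every obese pre-therapy tumor. In RNA of whole tumors, fewer melanoma cells and less RNA per melanoma cell cannot be told apart.

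All 10 genes were expressed in every tumor, which matches the pigmented line of the labels, and the lowest count of any of them was 1502, for Oca2. On the TPM scale, which takes transcript length into account and so allows levels of different genes to be compared, 3 of them stood among the most abundant transcripts of the tumor. In lean pre-therapy tumors, Tyrp1 had 6033 ± 352 TPM (SD, n = 4) and ranked 12 among all genes by group mean, Pmel 5610 ± 798 TPM and rank 13, and Dct 5152 ± 473 TPM and rank 16. These neighbours lay within each other's spread. Mlana followed with 1658 ± 281 TPM, Slc45a2 with 816 ± 109 TPM and Sox10 with 380 ± 45.0 TPM. Mitf had 251 ± 56.5 TPM, Tyr 233 ± 29.2 TPM and Mc1r 177 ± 1.14 TPM, of which Mitf and Tyr lay within each other's spread, and Oca2 was lowest with 51.5 ± 5.95 TPM. In obese pre-therapy tumors the ranks of Tyrp1, Pmel and Dct were 28, 40 and 26, and after ETS 23, 27 and 20. In lean tumors after ETS they were 18, 20 and 19.

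Together the 10 genes took 2.11 to 2.46% of all counts in lean pre-therapy tumors and 2.3 to 2.61% after ETS. In obese hosts, the shares were 1.19 to 1.69% before therapy, and 2.47, 2.33, 1.58 and 1.19% in ETS tumors 1 to 4. By this summed share the obese ETS group was split, with tumors 1 and 2 at the level of lean tumors and tumors 3 and 4 at that of obese pre-therapy tumors. Single genes differed. Tyr, Mlana, Oca2 and Mc1r in tumor 3, and Oca2 and Mc1r in tumor 4, were above every obese pre-therapy tumor, while the abundant Tyrp1, Dct and Pmel were not. The share of counts from mitochondrially encoded genes was likewise higher in tumors 1 and 2, at 11.5, 11.6, 6.64 and 4.63% in these 4 tumors. It was 9.75 to 14.4% in lean ETS tumors, 4.15 to 6.04% in lean and 4.02 to 5.52% in obese pre-therapy tumors, so that tumor 3 lay between. The part of this split in the results below was not tested, and the counts of members called, of ratios separated and of wider-list genes called in obese tumors are given with and without tumors 3 and 4.

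**Figure D1:**
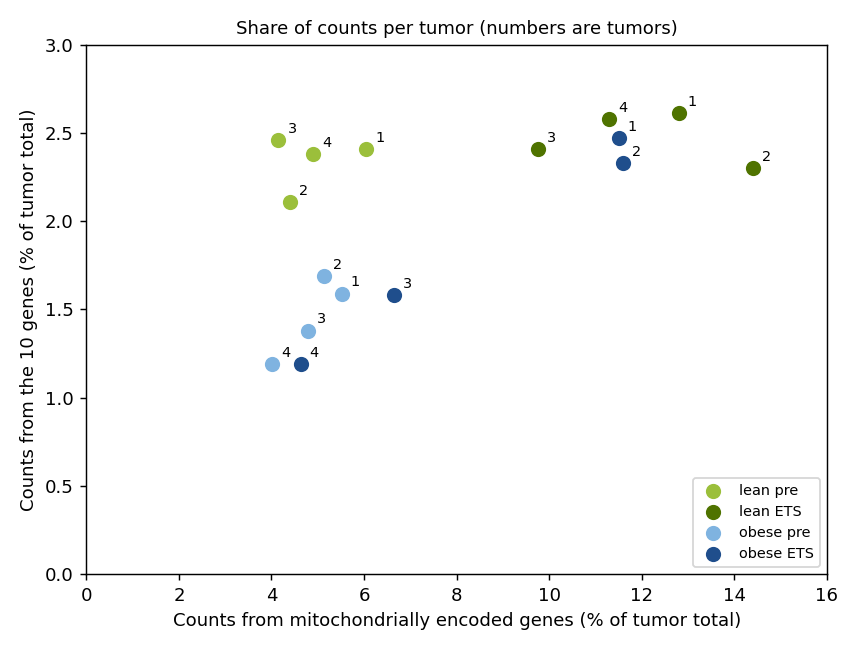
Share of each tumor's counts that came from the 10 genes (vertical axis, percent) against the share from mitochondrially encoded genes (horizontal axis, percent), with a point for each of the 16 tumors, coloured by group and numbered by tumor. Obese ETS tumors 1 and 2 lie with the lean ETS tumors, while tumors 3 and 4, at 1.58 and 1.19%, lie at the height of the obese pre-therapy tumors, with tumor 3 to their right.

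Promoter sequence was looked at because Mitf is known to recognise the letters CATGTG in the pigment genes, most strongly when preceded by T as in TCATGTG. RefSeq promoters on GRCm38.p6 were at hand for 6 of the 10 genes, Mitf (with 3 start sites), Tyr, Tyrp1, Dct, Oca2 and Mc1r. The 250 bases before each start were searched on both strands for TCATGTG, for CATGTG (which TCATGTG contains), for the E-box CACGTG and for the cyclic AMP response element TGACGTCA. Of 32851 promoters of the same length, 3.25% held TCATGTG, 12.3% CATGTG, 6.02% CACGTG and 1.55% TGACGTCA. TCATGTG was found before the start of Tyr, Tyrp1, Dct and Mc1r, and Dct held it at 2 positions. Oca2 held only CATGTG, on the opposite strand at bases -186 to -181. TGACGTCA was found only before the most downstream Mitf start, at bases -153 to -146, and CACGTG was in none of the 8 windows of these genes. A stretch around TCATGTG is printed for each of the 4 genes because, of the motifs searched, it is the one they share with each other and not with Mitf or Oca2. The Mitf stretch is printed because it holds the other motif. The second Dct match, at bases -232 to -226 on the opposite strand, and the Oca2 match are not printed. Each runs 5′ to 3′ on the strand of its gene, with matches in capitals (in Mc1r, CACATG is CATGTG on the opposite strand).
Tyr, chr7:87493513-87493612, minus strand: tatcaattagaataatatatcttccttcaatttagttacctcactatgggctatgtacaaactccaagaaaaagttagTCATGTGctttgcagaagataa
Tyrp1, chr4:80834154-80834183, plus strand: gtggggagggagTCATGTGctgcctagtag
Dct, chr14:118052327-118052426, minus strand: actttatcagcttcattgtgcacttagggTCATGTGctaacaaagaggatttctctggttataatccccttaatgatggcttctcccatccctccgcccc
Mc1r, chr8:123406982-123407081, plus strand: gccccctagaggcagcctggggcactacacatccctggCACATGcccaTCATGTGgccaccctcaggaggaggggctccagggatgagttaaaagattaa
Mitf, chr6:97991583-97991682, plus strand: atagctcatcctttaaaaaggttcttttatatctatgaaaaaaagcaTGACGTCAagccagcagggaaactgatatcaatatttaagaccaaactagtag
The printed TCATGTG match ended 16 bases before the start in Tyr, 41 in Tyrp1, 46 in Mc1r and 145 in Dct. The Tyrp1 stretch lies in an annotated exon of a longer Tyrp1 transcript. Such a match describes letters only.

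After ETS in lean tumors, Tyr, the enzyme that starts melanin synthesis, and Oca2, a melanosomal channel that raises the organelle's pH, rose about equally, 2.01-fold and 2.03-fold. Sox10 rose 1.41-fold and Mc1r 1.42-fold, no member fell past the test, and Mitf had the only negative fold change. Thus 4 of the 10 genes were called higher (edgeR's quasi-likelihood test, Benjamini-Hochberg adjusted p under 0.05). Of the 16209 genes tested, 43.8% were called in either direction, 21% higher and 22.8% lower. The share of members called in either direction is near that of all genes, and all 4 calls were higher. The log2 fold changes of the 10 genes had a median of 0.47, against -0.01 for all genes. Markers of host cells fell in the same comparison, 7 of 10 for macrophages (median log2 fold change -2.13) and 4 of 7 for fibroblasts (-1.76). With the macrophage score of each tumor (mean log2 CPM of these markers) in the fit, 3 members were called, all but Sox10 of the 4. In that fit 35.7% of all genes were called. With the fibroblast score the 4 were called, where 43.1% of all genes were. In 6 of the 10 genes, Sox10, Tyr, Dct, Mlana, Oca2 and Mc1r, every ETS tumor exceeded every pre-therapy tumor, where 20.8% of all genes did. Between 3 and 5 of them were called when a tumor was left out, with Mc1r lost without lean pre-therapy tumor 2, 3 or 4 or ETS tumor 1 or 2. On the log2(TPM + 1) scale the median of all genes moved by -0.28. There 53.25% of all genes were called, and 15.7% of those calls were higher (48.0% in edgeR). Of the members only Tyr and Oca2 were called, and Tyrp1, Dct and Pmel had negative values of -0.21, -0.05 and -0.23.

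After ETS in obese tumors, Oca2 rose 2.80-fold and Tyr 1.89-fold, and Slc45a2, Mc1r and Mlana rose as well, 1.81-, 1.66- and 1.58-fold. Here 5 of the 10 genes were called higher, where 40.2% of all genes were called, 21.2% higher and 19% lower. The median log2 fold change was 0.66, against 0.01 for all genes. Groups overlapped in all but Oca2 and Mc1r, the 2 genes in which each ETS tumor was above each pre-therapy tumor (16.4% of all genes). The count was 4 to 8 when a tumor was left out, and it was 8 without ETS tumor 4, when Tyrp1, Dct and Pmel were added. No share of all genes is given for these fits. Without tumors 3 and 4 the count was also 8, where 42.5% of all genes were called. That omission was chosen after seeing the data, in tumors whose levels of these genes were themselves low. Here 7 of 10 macrophage and 7 of 7 fibroblast markers were called higher, and 5 and 6 of them without tumors 3 and 4. With the macrophage score in the fit, or with the fibroblast score, the count of members was 1, Oca2. Of all genes, 13.5% were called with the macrophage and 15.3% with the fibroblast score. Neither marker sum overlapped between the groups, so score and therapy are hard to separate in these fits.

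Before therapy, obese tumors had less of most pigment genes than lean tumors. Oca2 was 2.25-fold, Pmel 2.02-fold, Slc45a2 1.83-fold, Mlana 1.68-fold, Tyrp1 1.64-fold and Mc1r 1.44-fold lower, while Sox10 and Mitf had positive fold changes that did not pass the test. Thus 6 of the 10 genes were called lower, where 26.4% of all genes were called, 13.5% higher and 12.9% lower. In 7 genes (those 6 and Dct) every obese tumor lay below every lean tumor, where 14.4% of all genes did. With log2(TPM + 1) these 7 were called lower. On that scale 24.0% of all genes were called, and 29.0% of those calls were higher (51.0% in edgeR). Only 3, Tyrp1, Mlana and Oca2, were called without lean pre-therapy tumor 3 or 4 or without obese pre-therapy tumor 3 or 4. Macrophage markers were lower in the same comparison, 8 of 10 past the test, as was 1 of 7 fibroblast markers. With the macrophage score in the edgeR fit, 0 of the 10 genes were called (lowest adjusted p = 0.134, with 4 genes at an unadjusted p under 0.05). Of all genes, 9.8% were called in that fit. The summed macrophage markers did not overlap between these groups, so score and host are hard to separate there. With the fibroblast score 4 members were called, where 22.3% of all genes were.

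After ETS, obese minus lean log2 fold changes were negative for all 10 genes (Mitf turned positive with TPM), yet 0 of the 10 were called by edgeR, where 5.58% of all genes were. At an unadjusted p under 0.05 there were 3, Tyrp1, Mlana and Oca2. DESeq2 called 2, Tyrp1 and Mlana, where it called 12.8% of all genes. Without obese ETS tumors 3 and 4 the edgeR count was again 0, where 0.68% of all genes were called, and Mitf, Tyr and Pmel had positive values. All 10 genes overlapped between these groups, where 13.2% of all genes did not. The response to ETS in lean tumors minus that in obese tumors was called for 0 of the 10 genes by edgeR and by DESeq2. Of all genes, edgeR called 16.4% and DESeq2 20.6%. Sox10 was the 1 gene with an unadjusted p under 0.05. Without obese ETS tumors 3 and 4, the difference was called for 2 genes, Pmel and Oca2, where 14.8% of all genes were called. Since these tumors were omitted for their low levels of the same genes, a larger rise in the obese tumors that remained followed from the omission, and nothing is read from these calls.

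**Figure D2:**
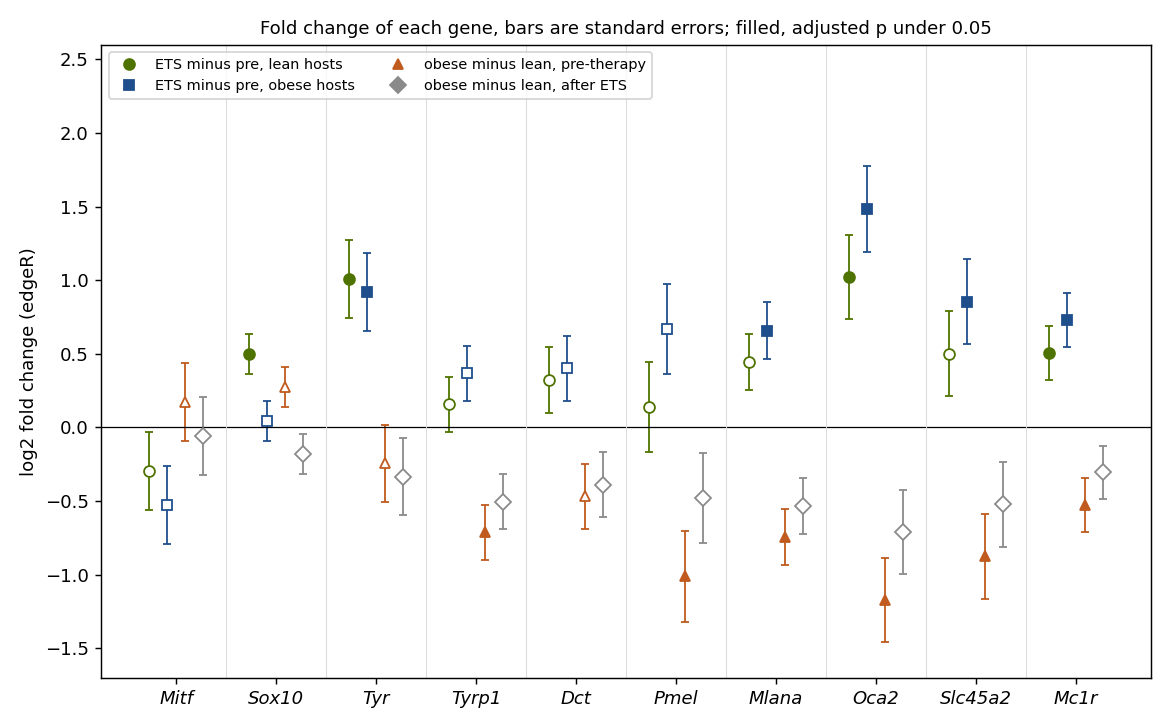
Log2 fold change from edgeR (vertical axis) of each of the 10 genes in 4 comparisons, with standard errors as bars and filled symbols for an adjusted p under 0.05. The ETS symbols of Tyr and Oca2 are filled in both hosts, the pre-therapy triangles are filled and below 0 for 6 genes, and all symbols for obese minus lean after ETS are open.

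Sox10, the neural crest factor that keeps melanocyte identity (Entrez 20665, chr15:79154913-79164490, minus strand), had 449, 468, 498 and 495 CPM in lean pre-therapy tumors 1 to 4 and 600.5, 754, 647 and 693.5 CPM in lean ETS tumors. The groups did not overlap, and the log2 fold change was 0.50 (SE 0.14, edgeR adjusted p = 0.0089). The call was lost with the macrophage score in the fit (edgeR adjusted p = 0.0625) and on the TPM scales, where the value was 0.12 with log2(TPM + 1) (limma adjusted p = 0.497) and 0.30 without mitochondrially encoded genes (limma adjusted p = 0.108). Obese pre-therapy tumors had 672, 662, 488 and 485 CPM and obese ETS tumors 683, 638, 596 and 459 CPM. These overlapped over nearly their whole range, with a log2 fold change of 0.04 (SE 0.14, edgeR adjusted p = 0.837) that was negative with TPM. Of the 10 genes, Sox10 had the lowest p for a difference between the responses, which was 0.455 on the log2 scale (lean minus obese, SE 0.19, edgeR unadjusted p = 0.0319, adjusted p = 0.124). Obese and lean tumors before therapy differed by 0.27 (SE 0.14, edgeR adjusted p = 0.157).

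Mitf, the factor that activates pigment genes (Entrez 17342, chr6:97807002-98021360, plus strand), was the only one of the 10 genes with a negative fold change in both hosts. Its level was 486.5, 494, 665 and 484 CPM in lean pre-therapy tumors and 381, 272, 559 and 520 CPM after ETS. In obese tumors it was 673, 839, 497 and 392 CPM before therapy and 451, 529, 429 and 254 CPM after. Tumors of the groups overlapped in each comparison, and spread within groups was wide, with an SD of up to 197 CPM. The log2 fold changes of -0.30 in lean tumors (SE 0.27, edgeR adjusted p = 0.379) and -0.53 in obese tumors (SE 0.27, edgeR adjusted p = 0.125) did not pass the test. Gene-level counts pool all Mitf transcripts, so the melanocyte start printed above is not separated from the others.

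Tyr (Entrez 22173, chr7:87424771-87493512, minus strand) had 735, 518, 649 and 686 CPM in lean pre-therapy tumors and 1480, 1260, 1206 and 1265 CPM in lean ETS tumors. The lowest ETS tumor was well above the highest pre-therapy tumor, and the log2 fold change was 1.01 (SE 0.27, edgeR adjusted p = 0.0069). In obese hosts, Tyr went from 701, 649, 441 and 394 CPM to 1449, 1297, 895 and 495 CPM. ETS tumor 4 lay inside the pre-therapy range and the other 3 above it, with a log2 fold change of 0.92 (SE 0.27, edgeR adjusted p = 0.0131). The rise remained called when any tumor was left out, at adjusted p of at most 0.0248 in lean and 0.0489 in obese tumors. In obese tumors the call was lost with only the 2 groups fitted (edgeR adjusted p = 0.054) and with the macrophage or the fibroblast score in the fit (edgeR adjusted p = 0.0978 and 0.0508). Between obese and lean pre-therapy tumors Tyr did not pass the test (log2 fold change -0.24, SE 0.26, edgeR adjusted p = 0.534).

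Tyrp1, which oxidises a late melanin intermediate and steadies tyrosinase (Entrez 22178, chr4:80834123-80851736, plus strand), had 6831 to 8716 CPM in lean pre-therapy tumors and 7887 to 9409 CPM in lean ETS tumors, ranges that overlapped. Obese pre-therapy tumors lay together at 4739, 5014, 4520 and 4343 CPM, all below the lean tumors. Their log2 difference from lean was -0.71 (SE 0.19, edgeR adjusted p = 0.0112), which was called in each fit with a tumor left out. Obese ETS tumors had 8160, 6995, 4697 and 4169 CPM, and the log2 fold change of 0.37 after ETS did not pass (SE 0.19, edgeR adjusted p = 0.131). Dct, which converts dopachrome (Entrez 13190, chr14:118012790-118052246, minus strand), had the same order: 4911 to 5578 CPM in lean pre-therapy, 6160 to 7298 CPM in lean ETS and 3030 to 4413 CPM in obese pre-therapy tumors. The lean ETS and the obese pre-therapy tumors were each separate from the lean pre-therapy tumors, but Dct did not pass with all 16 tumors in the edgeR fit (adjusted p = 0.251 after ETS in lean tumors and 0.135 between obese and lean tumors before therapy). The exact test called both (adjusted p = 0.0326 and 0.0019), and the pre-therapy difference was also called with only the 2 groups fitted (edgeR adjusted p = 0.0306), with log2(TPM + 1) (limma adjusted p = 0.0391) and with log2(TPM + 0.1) (limma adjusted p = 0.0344). In obese ETS tumors, Dct was 6680, 6848, 4235 and 2907 CPM, with the first 2 above all obese pre-therapy tumors and the last below them.

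Pmel, which forms the amyloid fibrils on which melanin is laid down (Entrez 20431, chr10:128695888-128720238, plus strand), had 6283, 4366, 5893 and 5756 CPM in lean and 3297, 3194, 2254 and 2309 CPM in obese pre-therapy tumors. The groups did not overlap, and the log2 difference, obese minus lean, was -1.01 (SE 0.31, edgeR adjusted p = 0.0241). After ETS, obese tumors had 7119, 5809, 2507 and 2123 CPM. The first 2 were above every obese pre-therapy tumor and the other 2 were in their range or below it, and the log2 fold change of 0.67 did not pass (SE 0.31, edgeR adjusted p = 0.0943). Lean tumors were little moved, at 5793 to 6319 CPM after ETS (log2 fold change 0.14, SE 0.31, edgeR adjusted p = 0.742). Pmel shares exonic sequence with Cdk2 and Dgka on the opposite strand, and whether counting used strand is not stated, so its counts are less certain.

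Mlana, a small melanosome membrane protein that binds Pmel (Entrez 77836, chr19:29697541-29708447, plus strand), had 406, 479, 502.5 and 512 CPM in lean and 254, 314.5, 348.5 and 216 CPM in obese pre-therapy tumors. All obese tumors were lower, with a log2 difference of -0.75 (SE 0.19, edgeR adjusted p = 0.0094). After ETS, Mlana was 550, 536, 415 and 286 CPM in obese tumors, a log2 fold change of 0.66 (SE 0.19, edgeR adjusted p = 0.0135), and 524 to 719.5 CPM in lean tumors, a log2 fold change of 0.45 (SE 0.19, edgeR adjusted p = 0.069). ETS tumor 4 was the only obese ETS tumor inside the pre-therapy range.

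Oca2 (Entrez 18431, chr7:56239593-56536518, plus strand) had 88.1, 62.1, 77.5 and 78.5 CPM in lean pre-therapy tumors and 213, 169, 113 and 128 CPM in lean ETS tumors. In obese tumors it had 39.4, 39.6, 30.2 and 26.5 CPM before therapy and 131, 134, 67.9 and 47.4 CPM after ETS. In each host all ETS tumors were above all pre-therapy tumors, and all obese pre-therapy tumors were below all lean ones. Its log2 fold changes were 1.02 after ETS in lean tumors (SE 0.29, edgeR adjusted p = 0.0098), 1.48 in obese tumors (SE 0.29, edgeR adjusted p = 0.0012) and -1.17 between obese and lean tumors before therapy (SE 0.29, edgeR adjusted p = 0.0073). Both ETS calls of Oca2 stood under every alternative tried, and the pre-therapy call under all but the fit with the macrophage score (adjusted p = 0.174).

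Slc45a2, a melanosomal transporter that also acts on pH (Entrez 22293, chr15:11000721-11029233, plus strand), had 1495, 955.5, 1034 and 1080 CPM in lean and 726, 781, 531 and 453 CPM in obese pre-therapy tumors. These did not overlap, at a log2 difference of -0.87 (SE 0.29, edgeR adjusted p = 0.0356). After ETS, it was 1555, 1593, 781 and 572 CPM in obese tumors, where tumor 3 had about the level of the highest pre-therapy tumor and tumor 4 lay in the pre-therapy range (log2 fold change 0.85, SE 0.29, edgeR adjusted p = 0.0285). This call was lost without obese pre-therapy tumor 3 or 4 or obese ETS tumor 1 or 2, with only the 2 groups fitted (edgeR adjusted p = 0.0764), with either marker score and with log2(TPM + 1) (limma adjusted p = 0.0502). Lean ETS tumors had 1314 to 1922 CPM, which overlapped lean pre-therapy tumors (log2 fold change 0.50, SE 0.29, edgeR adjusted p = 0.168).

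Mc1r, the receptor for melanocyte-stimulating hormone (Entrez 17199, chr8:123407082-123410744, plus strand), had 337, 298, 280.5 and 293 CPM in lean pre-therapy and 431, 517, 359.5 and 407 CPM in lean ETS tumors. In obese tumors it had 253, 260, 167 and 158 CPM before therapy and 422, 402, 292 and 272 CPM after. All ETS tumors were above the pre-therapy tumors of their host, with log2 fold changes of 0.50 in lean (SE 0.18, edgeR adjusted p = 0.0348) and 0.73 in obese tumors (SE 0.18, edgeR adjusted p = 0.0058). The lean call was lost with log2(TPM + 1) (0.12, limma adjusted p = 0.531), and the obese call with either marker score. The obese minus lean difference before therapy was -0.53 (SE 0.18, edgeR adjusted p = 0.0428). Mc1r shares exonic sequence with Gm38092 on the opposite strand and overlaps Gm20388, which makes its counts less certain.

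**Figure D3:**
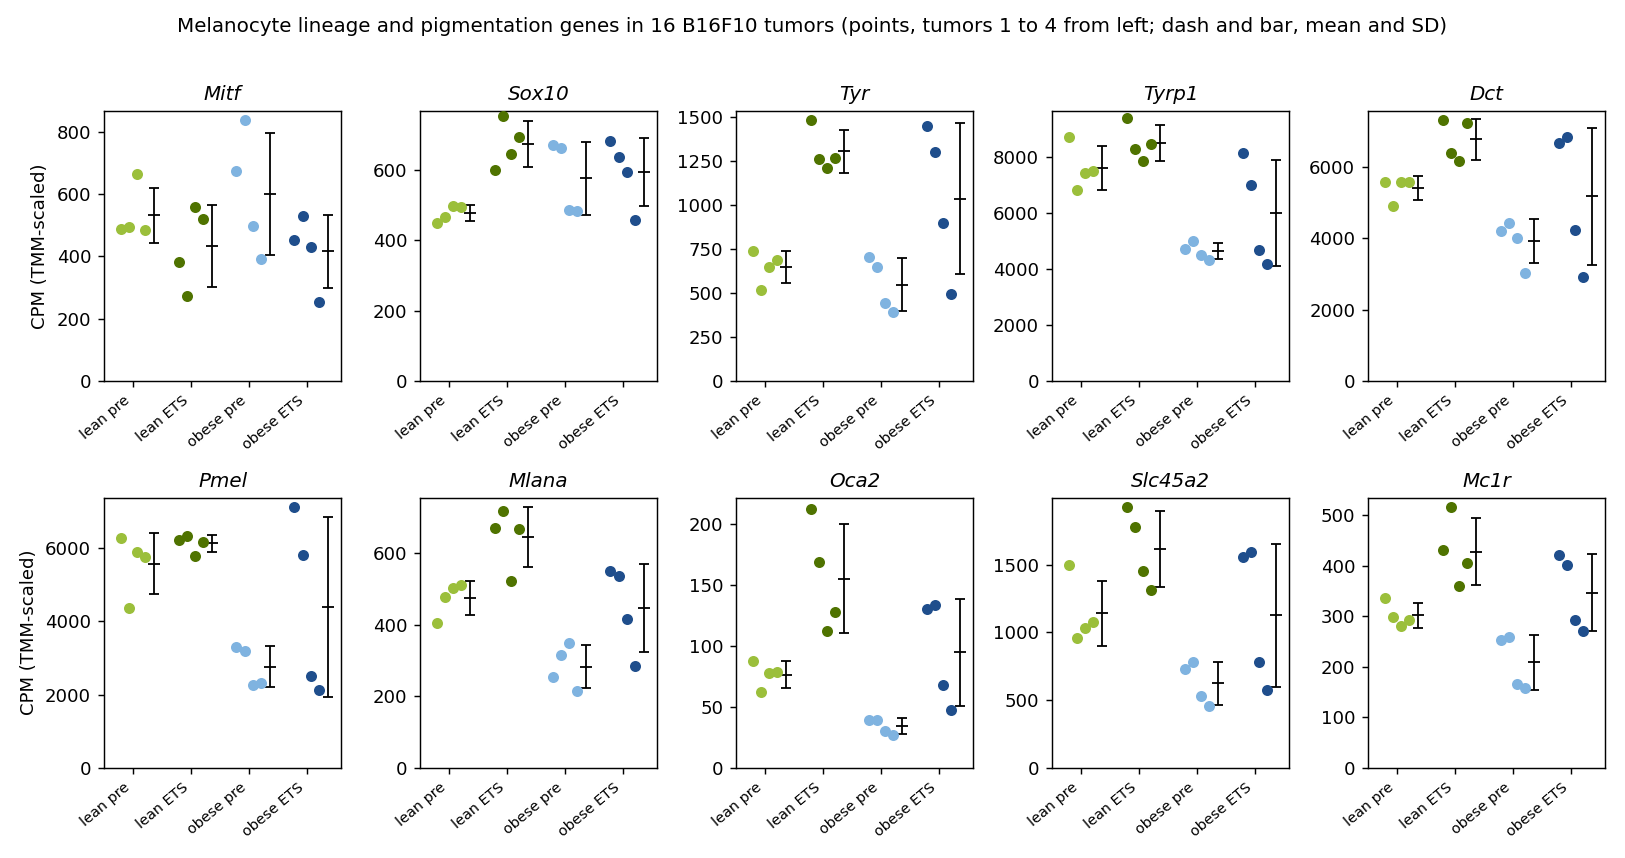
TMM-scaled CPM (vertical axis, linear, from 0) of each of the 10 genes in each tumor, with points for tumors 1 to 4 from left to right in each group and a dash and bar for the mean and SD of 4 tumors. Oca2 in obese tumors rises from between 26.5 and 39.6 CPM to between 47.4 and 134 CPM, while Mitf overlaps in all groups, and ETS tumors 3 and 4 of obese hosts lie below tumors 1 and 2 in most panels.

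To see how the pigment genes moved against the factors that mark the lineage, each was divided by Sox10 or by Mitf in the same tumor, and the log2 ratios were compared with two-sided exact permutation tests over tumors (70 arrangements, smallest possible p = 0.0286). Against Sox10, 8 of the 9 other members had lower ratios in every obese than in every lean pre-therapy tumor, all but Mitf, where 23.1% of all genes did. The median difference was -0.97 on the log2 scale. Oca2 to Sox10 was -2.35, -2.91, -2.68 and -2.66 in lean and -4.09, -4.06, -4.01 and -4.19 in obese tumors. The obese values were far below the lean ones and closer to each other. None of the 36 ratio tests passed after adjustment, with a lowest adjusted p = 0.0735 by exact permutation. After ETS in lean tumors, Tyr separated upward from Sox10 (log2 difference 0.52) and Mitf downward (-0.83), where 4.82% of all genes separated upward and 49.7% downward. The count of 2 rose to 5 without lean ETS tumor 1, and the ratios added, of Tyrp1, Dct and Pmel, separated downward. No share of all genes is given for that omission. In obese tumors, Tyr, Oca2, Slc45a2 and Mc1r separated upward, 4 of 9, where 13.9% of all genes did. Without ETS tumors 3 and 4, 8 of 9 did. These tumors were omitted for their low levels of the same genes, and fewer tumors separate more easily. No share of all genes is given for the omission, and nothing is read from this count. After ETS, 0 of 9 ratios separated obese from lean tumors, with or without those tumors, where 10.2% of all genes did.

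Against Mitf, all 9 ratios had a positive difference after ETS in both hosts. Tyr to Mitf was 0.60, 0.07, -0.03 and 0.50 on the log2 scale in lean pre-therapy tumors and 1.96, 2.21, 1.11 and 1.28 in lean ETS tumors. In obese tumors it was 0.06, -0.37, -0.17 and 0.01 before and 1.68, 1.29, 1.06 and 0.96 after ETS, so that here ETS tumors 3 and 4 were also above all pre-therapy tumors. The differences were 1.36 in lean and 1.37 in obese tumors. Ratios to Mitf separated for 3 of 9 members in lean tumors (Sox10, Tyr and Oca2), where 16.7% of all genes separated upward. In obese tumors 6 of 9 did (Tyr, Dct, Mlana, Oca2, Slc45a2 and Mc1r), where 22.8% of all genes did. Without ETS tumors 3 and 4 it was 8 of 9, from which nothing is read for the same reasons as with Sox10. Before therapy, 7 of 9 were lower in obese tumors, where 8.92% of all genes were, and after ETS 0 of 9 separated, with or without those tumors, where 2.12% did. No ratio passed after adjustment over the 36 tests (lowest adjusted p = 0.0643 by exact permutation).

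**Figure D4:**
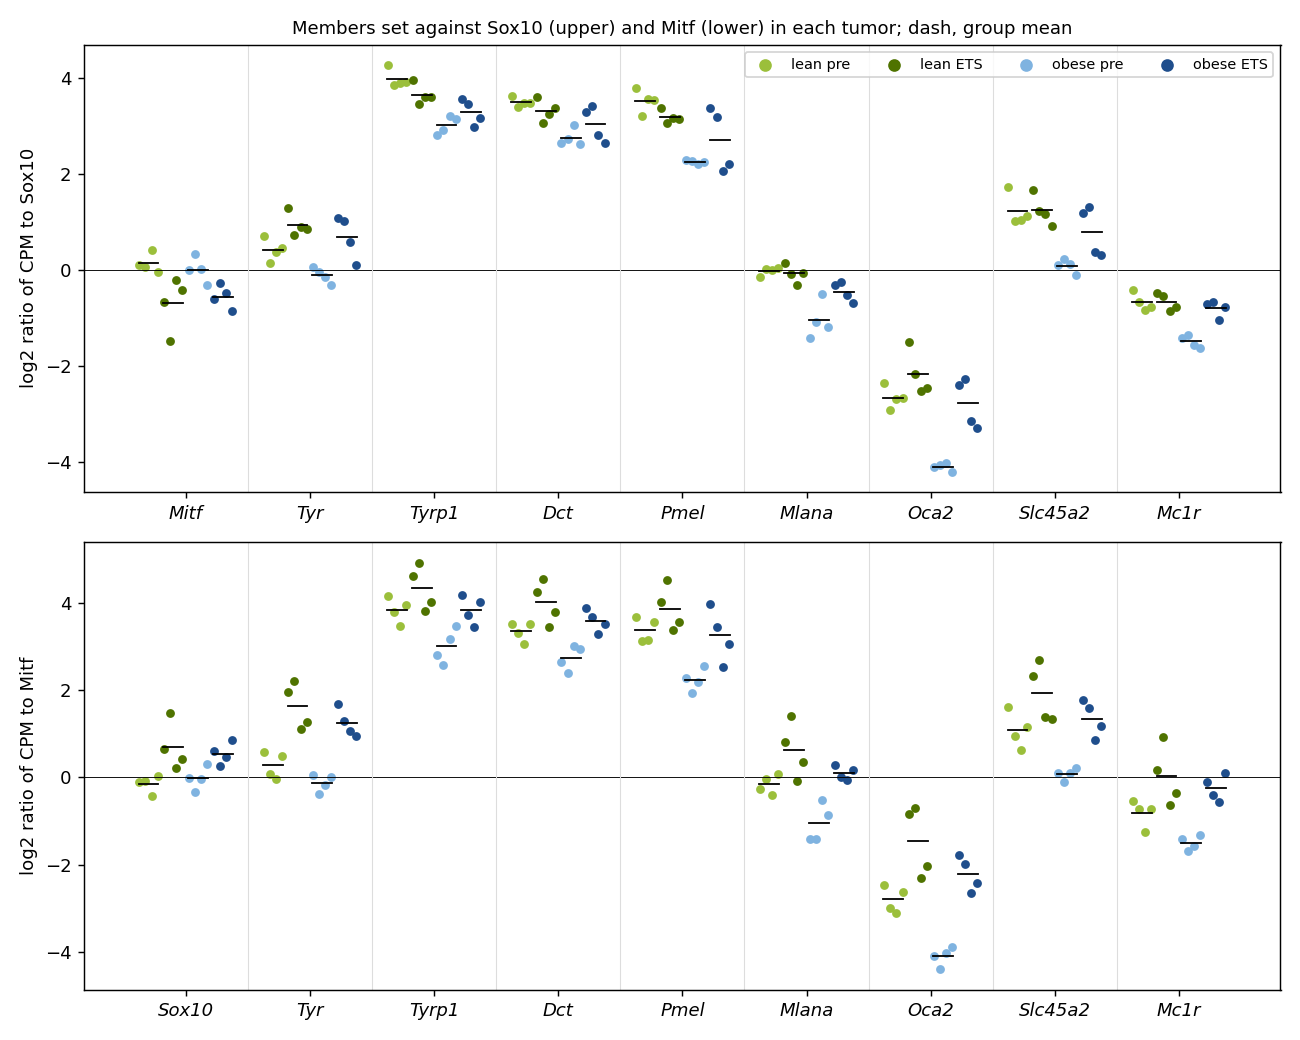
Log2 ratio of each member's CPM to that of Sox10 (upper panel) and of Mitf (lower panel) in each tumor, with dashes for group means of 4 tumors. In the upper panel the obese pre-therapy points lie below the lean pre-therapy points for all members but Mitf. In the lower panel the means after ETS are above those before it for all 9 members in both hosts, where Mitf itself had negative fold changes.

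The wider lists are read against the shares of all genes called, which were 21% higher and 22.8% lower after ETS with lean hosts, 21.2% and 19% with obese hosts and 13.5% and 12.9% before therapy. Of 30 genes for melanosome biogenesis, pH and transport, 7 rose and 3 fell after ETS in lean tumors (median log2 fold change 0.18), 11 rose and 1 fell in obese tumors (0.25), and 2 were higher and 10 lower in obese than in lean tumors before therapy (-0.25). With TPM without mitochondrially encoded genes the lean counts turned to 4 and 5, and without obese ETS tumors 3 and 4 the obese counts were 14 and 1. Rab17, a GTPase of melanosome transfer, rose most in lean tumors, from 21.6 to 38.6 CPM to 59.2 to 70.1 CPM (log2 fold change 1.17, SE 0.14, edgeR adjusted p = 3.16e-05). Gpnmb, a melanosomal glycoprotein related to Pmel that macrophages also express, rose in obese tumors from 3520 to 4803 CPM to 4771 to 11240 CPM (log2 fold change 1.07, SE 0.23, edgeR adjusted p = 0.0022). Slc7a11, the cystine transporter needed for pheomelanin, was the gene that fell in both hosts, from 16.7 to 20.6 CPM to 2.2 to 7.79 CPM in lean tumors (log2 fold change -2.17, edgeR adjusted p = 0.00053) and from 21.5 to 41.1 CPM to 4.86 to 17.7 CPM in obese tumors (-1.56, edgeR adjusted p = 0.0045). Gpr143, a melanosomal receptor behind ocular albinism, was 16.8 to 26.2 CPM in obese and 35.8 to 53.1 CPM in lean pre-therapy tumors (log2 difference -1.08, edgeR adjusted p = 0.0212). Bloc1s2, a subunit of a sorting complex for melanosome cargo, had the larger of the 2 called positive differences there (0.42, edgeR adjusted p = 0.0186). In obese ETS tumors 1 to 4, Gpr143 was 62, 60.8, 26.7 and 15.6 CPM and Gpnmb 11190, 11240, 7790 and 4771 CPM. Both were higher in tumors 1 and 2 than in tumors 3 and 4, and Gpnmb in tumor 3 was above every obese pre-therapy tumor.

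Among signals and regulators of the lineage, 16 of 19 genes could be tested, and 3 rose and 4 fell in lean tumors, 4 rose and 2 fell in obese tumors, and 1 was higher and 1 lower in obese tumors before therapy. Without obese ETS tumors 3 and 4 the obese counts were 3 and 2, and with TPM without mitochondrially encoded genes the lean counts were 0 and 6. Creb1, the factor that binds the cyclic AMP response element, fell in both hosts, from 72.9 to 83.9 CPM to 42.7 to 56.8 CPM in lean and from 73.0 to 83.0 CPM to 38.6 to 47.5 CPM in obese tumors (log2 fold change -0.85 in obese tumors, SE 0.09, edgeR adjusted p = 2.86e-05). Tfeb, a relative of Mitf that drives lysosome genes, rose in lean tumors (0.51, SE 0.17, edgeR adjusted p = 0.0229). Kitl, the ligand of Kit and a product of stromal cells too, was low throughout, at 6.12 to 10.1 CPM in lean and 1.49 to 4.63 CPM in obese pre-therapy tumors (log2 difference -1.57, edgeR adjusted p = 0.0031), and in lean ETS tumors it was 3.32 to 4.28 CPM (log2 fold change -1.12, edgeR adjusted p = 0.0132). In obese tumors Kitl rose after ETS, to 2.74 to 7.83 CPM (log2 fold change 0.95, edgeR adjusted p = 0.0342), and the difference between the responses was called (lean minus obese -2.07, edgeR adjusted p = 0.0073). Ednrb, an endothelin receptor of melanoblasts that endothelial cells also carry, rose in obese tumors from 6.1 to 14.4 CPM to 18.4 to 50.1 CPM (1.61, edgeR adjusted p = 0.0129), and 5 of 6 endothelial markers were called higher there, with or without tumors 3 and 4.

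Of 15 Mitf targets with other functions, 14 could be tested. In lean tumors 2 rose and 5 fell after ETS, in obese tumors 5 rose and 1 fell, and before therapy 1 was higher and 7 lower in obese tumors. Without obese ETS tumors 3 and 4, 6 were higher and no gene was called lower after ETS in obese tumors. Gmpr, a purine enzyme, rose in lean tumors from 32.1 to 43.4 CPM to 58.7 to 88.9 CPM (log2 fold change 0.995, SE 0.16, edgeR adjusted p = 0.00024). Cdk2, the cell cycle kinase that overlaps Pmel on the opposite strand, fell in obese tumors (log2 fold change -0.46, edgeR adjusted p = 0.0392), a call lost without ETS tumors 3 and 4 and with TPM without mitochondrially encoded genes. Rragd, a GTPase of the lysosomal nutrient pathway, was higher in obese tumors before therapy, at 39.8 to 53.9 against 21.5 to 25.3 CPM (log2 difference 1.08, edgeR adjusted p = 4.51e-05). Prkcb, a kinase that immune cells express as well, was 5.06 to 10.3 CPM in lean pre-therapy tumors, 0.07 to 1.5 CPM after ETS (log2 fold change -3.49, edgeR adjusted p = 0.0016) and 0.25 to 2.09 CPM in obese pre-therapy tumors (log2 difference -3.14, edgeR adjusted p = 0.0045). Acp5, an acid phosphatase that macrophages express as well, rose in obese tumors from 0.44 to 2.71 CPM to 2.96 to 5.71 CPM (1.56, edgeR adjusted p = 0.0264). In lean tumors it fell from 2.5 to 10.2 CPM to 1.47 to 3.96 CPM (-1.31, edgeR adjusted p = 0.0475), and the difference between the responses was called (lean minus obese -2.86, edgeR adjusted p = 0.0138). Of the macrophage markers, 7 of 10 fell in lean tumors, 7 of 10 rose in obese tumors (5 without ETS tumors 3 and 4) and 8 of 10 were lower in obese tumors before therapy, and their part in the changes of Prkcb and Acp5 was not tested.

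Of 12 genes of the neural crest and of the melanoma surface, 7 could be tested, and 5 rose after ETS in lean tumors, 4 rose in obese tumors and 4 were higher in obese tumors before therapy. Without obese ETS tumors 3 and 4 the obese count was again 4, and with TPM without mitochondrially encoded genes the counts were 4, 4 and 2. S100b, a calcium-binding protein used as a melanoma marker, went from 47.9, 32.1, 40.8 and 43.6 CPM to 187, 146, 164 and 181.5 CPM in lean tumors (log2 fold change 2.05, SE 0.19, edgeR adjusted p = 3.23e-06). Mcam, an adhesion molecule of melanoma and vessels, went from 124 to 185.5 CPM to 303 to 421 CPM in obese tumors (1.26, SE 0.13, edgeR adjusted p = 2.16e-05), with no drop in tumors 3 and 4, which had 368 and 421 CPM. L1cam, a neural adhesion molecule, was 4.94 to 14.9 CPM in obese and 2.71 to 4.41 CPM in lean pre-therapy tumors (log2 difference 1.61, edgeR adjusted p = 0.0211). Schwann cells share several of these genes, and 5 Schwann cell markers summed to 74.8 to 117 CPM in lean pre-therapy, 259 to 426 CPM in lean ETS, 280 to 333 CPM in obese pre-therapy and 285 to 728 CPM in obese ETS tumors.

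**Figure D5:**
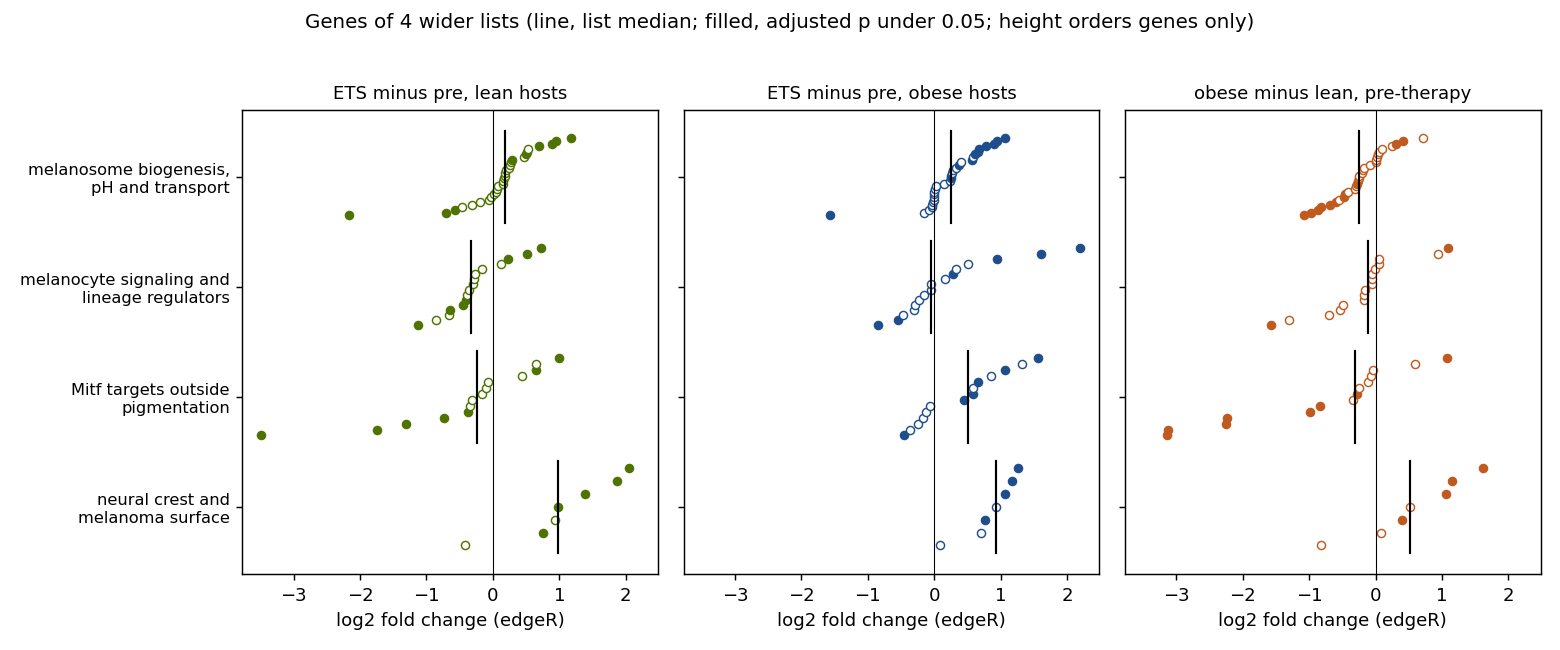
Log2 fold change from edgeR (horizontal axis) of each tested gene in the 4 wider lists, in 3 comparisons, filled where the adjusted p was under 0.05, with a line at each list's median and genes spread vertically only to order them. The 7 neural crest and melanoma surface genes have medians of 0.98, 0.93 and 0.52, and the 30 melanosome genes medians of 0.18, 0.25 and -0.25.

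Last, all 13305 other genes with a mean of at least 1 CPM were ranked by how closely their pattern over the 16 tumors followed that of the 10 genes, as the Euclidean distance between the gene's z-scored log2 CPM and the mean z-score of the members. Tspan10, a tetraspanin of pigment cells, was closest (distance 1.03), with 365 ± 45.3 CPM in lean pre-therapy, 572 ± 75.8 in lean ETS, 185 ± 47.8 in obese pre-therapy and 334 ± 187 CPM in obese ETS tumors (SD, n = 4 each). Zfp3, Dpp7, Adamtsl2 and Retreg3 followed at distances of 1.09, 1.09, 1.1 and 1.17. Dpp7, a lysosomal peptidase, had 48.2 ± 4.26 CPM in lean pre-therapy, 89.0 ± 10.4 in lean ETS, 22.2 ± 5.46 in obese pre-therapy and 50.1 ± 28.3 CPM in obese ETS tumors. The distances describe the 16 tumors only and were not tested.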

How the data were processed

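The authors prepared TruSeq Stranded libraries, and per the labels reads were processed with bcl2fastq 2.20.0, Trimmomatic, HISAT2 2.1.0 (mm10) and StringTie 2.1.3b. The authors deposited whole-number counts for each gene, not normalized, and whether counting used strand is not given in the sources used here. The deposited TPM values served levels between genes and alternatives, and the 16 deposited FPKM columns were not used. Groups and tumor numbers were read from the labels. Of 45777 genes, 29568 had a 0 in 1 or more tumors and were left out, and 16209 were tested. Counts were scaled by TMM and tested with edgeR 4.0.16 (R 4.3.3), quasi-likelihood, on all 16 tumors with a mean per group and Benjamini-Hochberg adjustment over all tested genes. Since the labels do not say more of how tumors within a group relate, p-values measure the spread between these tumors. On simulated counts with changes planted in lean ETS tumors, 52 of 66 genes of log2 fold change 1 and 1 of 55 of 0.5 were recovered among 15960 tested, with 8 false calls. Few genes were changed there, at a single fixed dispersion, while 43.8% of genes were called in lean tumors here. The rate of recovery therefore does not carry over to these data.

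The 10 genes and the wider lists were chosen with earlier results of these data known. Named from each wider list were the genes with the largest called rise and fall in the lean, obese and pre-therapy comparisons at a mean of at least 1 CPM, and the 5 nearest genes. Alternatives were DESeq2 1.42.0, its size factors, other filters, the exact test on counts plus 1, fits of only 2 groups, limma 3.58.1 on log2(TPM + 1) or log2(TPM + 0.1), a replicate block, marker scores as covariates and each tumor left out. Added after seeing the data were TPM without the 13 mitochondrially encoded genes, the fibroblast score and the omission of obese ETS tumors 3 and 4.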

Additional observations from a re-analysis of the deposited data

Results flagged for a closer look

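Each of the 10 genes was checked in each group of 4 tumors, 40 groups in all, for a tumor that stood apart (by Dixon's test at the 95% level, on the gap to its nearest neighbour over the group's range), which chance alone flags in about 1 of 20 groups. The 2 found were both in lean pre-therapy tumors. Mitf in tumor 3 was 664.7 CPM, above 484 to 494 CPM in the other 3 (gap over range 0.944). Dct in tumor 2 was 4911 CPM, below 5575 to 5578 CPM in the other 3 (gap over range 0.995).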

How the results depend on the processing

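Main counts of members called were 4 (ETS, lean), 5 (ETS, obese), 0 (difference of these), 6 (obese against lean before therapy) and 0 (after ETS). Other counts beyond 1.5 times these were 7 in lean tumors with the exact test, 2 there with limma on either TPM scale or TPM without mitochondrially encoded genes, 3 in obese tumors with only the 2 groups fitted, 1 there with the macrophage or the fibroblast score, 0 before therapy with the macrophage score, and 2 after ETS with DESeq2. Without obese ETS tumors 3 and 4 they were 8 in obese tumors and 2 for the difference, where 42.5% and 14.8% of all genes were called. Of all genes, 40.9% were called in lean tumors with the exact test. There, 53.25% were called with log2(TPM + 1), 53.5% with log2(TPM + 0.1) and 45.55% with TPM without mitochondrially encoded genes. In obese tumors, 33.1% were called with only the 2 groups fitted, 13.5% with the macrophage and 15.3% with the fibroblast score. Before therapy 9.8% were called with the macrophage score, and after ETS 12.8% with DESeq2. Leaving out each tumor gave 3 to 5, 4 to 8, 0 to 0, 3 to 7 and 0 to 1. No share of all genes is given for these fits. Ratios to Sox10 whose groups did not overlap numbered 2 to 5 in lean, 4 to 5 in obese, 8 to 8 before therapy and 0 to 1 after ETS. Of 24 same-number pairs of tumors from different groups, 12 correlated above 0.1, with a range of -0.151 to 0.57. Pairs with different numbers ran from -0.693 to 0.596. Whether tumor numbers pair the tumors was not tested and cannot be told from these values. With the replicate block the counts were 4, 5, 0, 6 and 1, the last being Oca2. Over all genes, the share of calls that were higher was 48.0% in lean, 52.8% in obese and 51.0% before therapy in edgeR, against 15.7%, 43.6% and 29.0% with log2(TPM + 1), 15.9%, 44.3% and 29.1% with log2(TPM + 0.1), and 29.6%, 56.4% and 30.6% with TPM without mitochondrially encoded genes.

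Values that changed sign were all of differences that did not pass the test as reported. With log2(TPM + 1), log2(TPM + 0.1) and TPM without mitochondrially encoded genes, the lean ETS value was -0.212, -0.212 and -0.0253 for Tyrp1 and -0.226, -0.226 and -0.0392 for Pmel, and with the first 2 it was -0.0549 and -0.055 for Dct. Sox10 in obese tumors was -0.0487 and -0.0488 with these. The lean minus obese difference was -0.101, -0.102 and -0.023 for Mitf and -0.106, -0.107 and -0.0267 for Tyr under the 3 TPM scales. With the macrophage score it was -0.40 for Mitf, 0.0942 for Slc45a2 and 0.17 for Mc1r, with the fibroblast score -0.47 for Mitf, -0.23 for Tyr and 0.0298 for Mc1r, and without obese ETS tumors 3 and 4 -0.0138 for Mitf and -0.34 for Tyr. Mitf before therapy was -0.0076, -0.0078 and -0.0143 under the TPM scales, -0.19 with the macrophage and -0.12 with the fibroblast score. After ETS it was 0.0937, 0.0946 and 0.0086, then 0.21 and 0.35, and 0.16 without the 2 tumors, where Tyr was 0.0683 and Pmel 0.0697. With a tumor left out, Sox10 in obese tumors ranged from -0.0324 to 0.15, Mitf before therapy from -0.0313 to 0.33 and after ETS from -0.24 to 0.11, and the lean minus obese differences of Tyr from -0.167 to 0.26 and of Dct from -0.30 to 0.0863. The cause was not tested. At this depth counting error was small, and the 4 tumors per group set the precision.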
